A study of Mus musculus with 3 samples.

Results

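The genes described are 8 endothelial junction and surface genes, Cdh5, Cldn5, Esam, Pecam1, Mcam, Emcn, Clec14a and Egfl7, of 27,994 genes in the count table. They are listed by name, as genes whose proteins hold endothelial cells together or mark the endothelial surface, and the list was drawn up with earlier results of these data known. Each was followed across the 7 clusters of cells that the authors deposited and, within clusters, between cells with and without transcripts of Runx1. The question was which of the 8 genes were lowest, and which were kept at higher levels, in cells outside the endothelial clusters and in cells with Runx1 transcripts.

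The cells were adult mouse cardiac endothelial cells from females aged 12 to 16 weeks. Cells taken directly from the heart (0 h) were sequenced together with cells held for 24, 48, 72 and 96 h in aggregates of 25,000 endothelial cells and 150,000 PDGFRA+ stromal cells (PSCs), the latter of the Mesp1-derived lineage from E11.5 embryos. The cultures were kept with interleukin-3, stem cell factor and Flt3 ligand, and cells cultured without PSCs are not analysed here. All times were pooled in each of 3 pools, so that time in culture cannot be read for any cell. Cells had been sorted as GFP+, CD31+ (the product of Pecam1), VE-cadherin+ (the product of Cdh5) and PDGFRA-, so that proteins of 2 of the 8 genes were part of the gate for every cell described here.

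The vessel wall is sealed by adherens junctions, in which VE-cadherin binds its like on the next cell and is tied to actin through catenins, and by tight junctions, in which claudin-5 and ESAM take part. In the embryo, haemogenic endothelial cells turn on the transcription factor Runx1, round up, leave the wall and become blood cells, and their junctions are taken apart as they do so. Some of these surface proteins are not exclusive to endothelium. PECAM1 is also found on platelets, monocytes and neutrophils, ESAM on megakaryocytes, platelets and blood stem cells, and MCAM on pericytes and smooth muscle.

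The table held 9,562 cells, of which 728, 799, 5,396, 239, 518, 1,572 and 310 fell in clusters 0 to 6. By the authors' rule, cluster numbers start with most Cdh5 and end with most Runx1, so that this order is no result for Cdh5. Markers fixed for each cell type gave clusters 0, 1 and 2 the highest endothelial sums (17.5 to 31.7 UMIs per 10,000, where a UMI is 1 counted RNA molecule), and these are called the endothelial clusters below. The 6 endothelial markers include Cdh5 and Pecam1, so that this naming is not independent of the 8 genes described. Cluster 3 carried germ-cell and pluripotency markers (49.7, against at most 0.573 elsewhere), cluster 4 stromal markers (20.1), cluster 5 macrophage (17.0) and granulocyte (15.6) markers and cluster 6 megakaryocyte markers (200.5). Median depth per cluster ran from 7,875 UMIs in cluster 1 to 36,065.5 in cluster 5. Barcodes carry a suffix from 1 to 3 that is tied to no pool, and 26 cells carry a barcode found with more than 1 suffix. No label says what the suffix marks, and cells with the same suffix are taken here as 1 library. Library 2 was the shallowest in the endothelial clusters (median 13,190 UMIs, against 20,586 and 34,386). The cells were treated as 1 sample, and no test between conditions was made. Each level is given with the 95% interval that counting alone allows and with its value in each library.

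Cdh5 encodes VE-cadherin, the adhesion molecule of the endothelial adherens junction (ENSMUSG00000031871, chr8:104101625-104144511 on GRCm38). It was measured at 9.30, 9.93 and 4.29 UMIs per 10,000 in clusters 0, 1 and 2. It was 0.640, 0.562, 0.585 and 0.503 in clusters 3, 4, 5 and 6, and no neighbours among these 4 in the order stood apart. Within cluster 5 the 3 libraries gave 0.542, 0.818 and 0.480. The highest of these was below the lowest library value in any endothelial cluster, 4.08.

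Cldn5 encodes claudin-5, the main claudin of endothelial tight junctions (ENSMUSG00000041378, chr16:18776847-18778262). It stood at 8.69, 9.87 and 6.58 UMIs per 10,000 in clusters 0, 1 and 2, and at 0.825, 0.669, 0.571 and 0.678 in clusters 3 to 6. In cluster 5 its libraries read 0.497, 0.905 and 0.432. Esam encodes a cell adhesion molecule of endothelial tight junctions (ENSMUSG00000001946, chr9:37528078-37538319). Levels of Esam were 5.24, 6.51 and 3.25 in the endothelial clusters and 0.415, 0.358 and 0.387 in clusters 3, 4 and 5. In cluster 6 it reached 1.23, with library values of 1.26, 1.18 and 1.24. These lay above every library of clusters 3, 4 and 5, the highest of which was 0.731.

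Pecam1 encodes CD31, an immunoglobulin-family adhesion molecule at lateral cell borders (ENSMUSG00000020717, chr11:106654217-106750628, minus strand). Its level was 7.27, 7.96 and 3.30 in clusters 0, 1 and 2. Outside them it was highest in cluster 3, at 1.14 (libraries 1.01, 1.49 and 0.837), followed by 0.776 in cluster 6, 0.640 in cluster 5 and 0.541 in cluster 4. Clusters 3, 6 and 5 stood apart in this order, and clusters 5 and 4 did not. Mcam encodes CD146, an adhesion molecule of endothelium and mural cells (ENSMUSG00000032135, chr9:44134469-44142727). It was the lowest of the 8 genes in the endothelial clusters together, at 0.745 UMIs per 10,000, with 1.13, 2.43 and 0.610 in clusters 0, 1 and 2. Cluster 4 held 0.290 (libraries 0.276, 0.296 and 0.301), above the 0.114, 0.0792 and 0.0928 of clusters 3, 5 and 6. The markers of pericytes and smooth muscle were also highest in cluster 4, with a sum of 14.8 against at most 2.97 in the other clusters, and their part in the Mcam level was not tested.

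Emcn encodes endomucin, a sialomucin of the luminal surface that is highest in veins and capillaries (ENSMUSG00000054690, chr3:137341067-137432185). Unlike Cdh5, Cldn5, Esam, Pecam1, Mcam and Egfl7, which were highest in cluster 1, Emcn was highest in cluster 2 at 7.81, followed by 7.07 in cluster 0 and 5.65 in cluster 1. Clusters 3 to 6 held 0.667, 0.551, 0.596 and 0.668 and did not stand apart. Clec14a encodes a C-type lectin-like surface protein of endothelium (ENSMUSG00000045930, chr12:58264720-58269290, minus strand). Its level was 4.41 in cluster 0, with 0.946 and 0.981 in clusters 1 and 2, so that a large step lay within the endothelial clusters. It was 0.151, 0.144 and 0.141 in clusters 3, 4 and 5 and 0.0668 (72 UMIs) in cluster 6. Egfl7 encodes a protein secreted by endothelial cells into the matrix, and was the highest of the 8 genes in the endothelial clusters together (ENSMUSG00000026921, chr2:26580014-26593120). It stood at 9.46, 13.2 and 8.93 in clusters 0, 1 and 2 and at 1.49, 1.18, 1.96 and 2.22 in clusters 3 to 6. Its libraries gave 1.91, 2.45 and 1.70 in cluster 5 and 2.11, 2.48 and 2.07 in cluster 6.

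**Figure D1:**
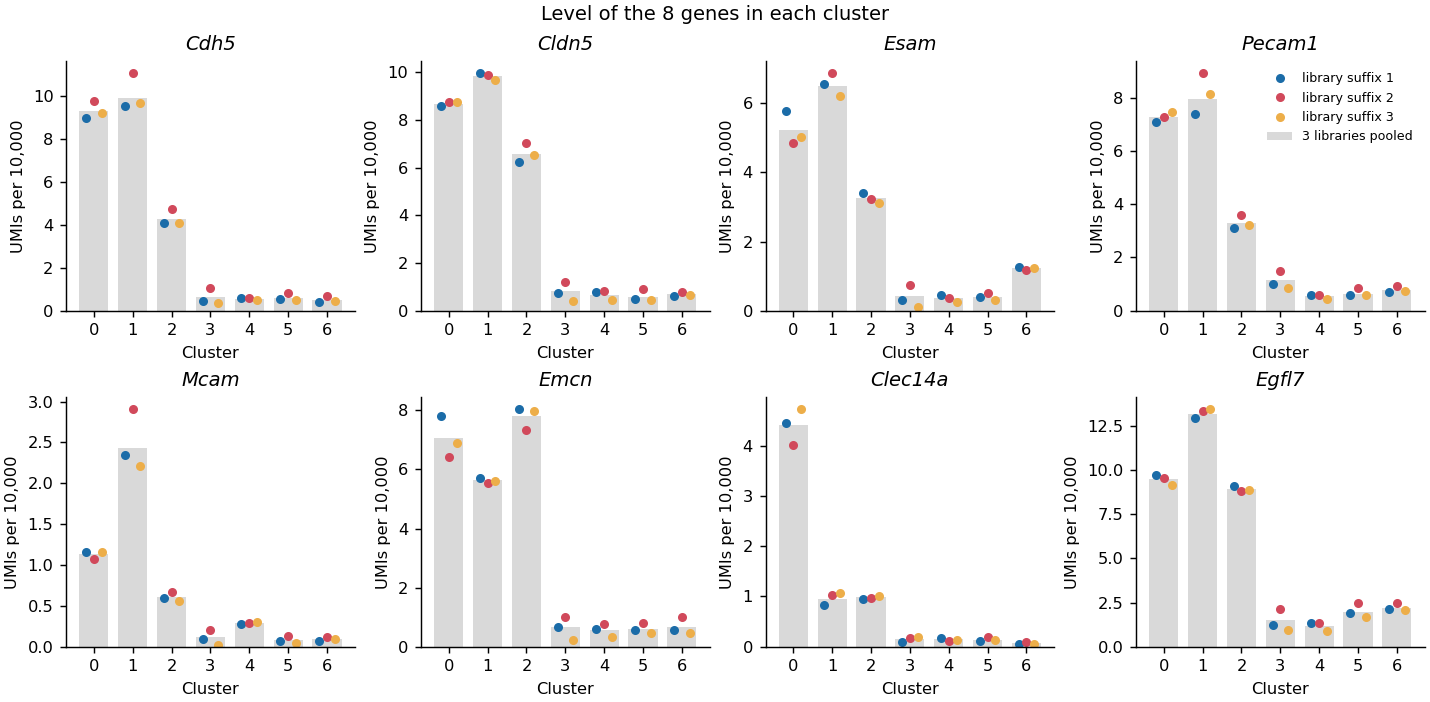
Level of each gene in UMIs per 10,000 UMIs (vertical axis, linear, from 0) in clusters 0 to 6 (horizontal axis), with bars for the 3 libraries pooled and points for the single libraries. The summed level of the 8 genes was 35.7 to 56.5 in clusters 0, 1 and 2 and 4.29 to 6.23 in clusters 3 to 6, and library 2 was the highest of the 3 for 7, 8 and 7 of the 8 genes in clusters 3, 5 and 6.

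RefSeq promoter sequences were at hand for 5 of the 8 genes, Cldn5, Egfl7, Clec14a, Emcn and Mcam, with 7 start sites in all. The 2 shown belong to the genes kept most (Egfl7) and least (Emcn) in cluster 5, as described below, and run from 250 bases before the start site to 50 after it on GRCm38.p6. They are Egfl7 at chr2:26583615-26583914 and Emcn at chr3:137340828-137341127, both on the plus strand. Capitals mark AGGAAG, a motif bound by ETS factors, or its reverse complement CTTCCT.
Egfl7: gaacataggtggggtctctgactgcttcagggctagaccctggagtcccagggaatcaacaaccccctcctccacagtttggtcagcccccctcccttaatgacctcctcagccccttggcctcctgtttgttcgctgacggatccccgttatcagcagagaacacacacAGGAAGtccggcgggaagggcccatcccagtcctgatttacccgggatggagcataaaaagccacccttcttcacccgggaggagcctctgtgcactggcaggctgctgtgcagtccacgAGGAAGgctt
Emcn: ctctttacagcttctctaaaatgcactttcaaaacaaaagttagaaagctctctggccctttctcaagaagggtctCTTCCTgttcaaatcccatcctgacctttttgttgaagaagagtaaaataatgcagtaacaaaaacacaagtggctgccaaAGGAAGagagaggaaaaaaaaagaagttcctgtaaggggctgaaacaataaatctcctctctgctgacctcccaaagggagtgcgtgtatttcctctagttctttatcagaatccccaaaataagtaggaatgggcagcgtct
Both hold the motif 2 times, whereas the other Egfl7 windows, not shown, hold it 3 and 0 times. Searched on both strands, AGGAAG was in 3 of the 7 member promoters, 2 of Egfl7 and 1 of Emcn, and in 35.4% of 32,851 RefSeq promoters of the same length. TGTGGT, a motif of RUNX factors, and AGATAA, a motif of GATA factors, were in none of the 7 windows, so that no matches overlapped, against 16.8% and 11.2% of all promoters. Such matches describe letters in a window, and nothing about binding follows from their presence or absence.

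In clusters 3, 4, 5 and 6 each of the 8 genes was at least 2-fold below the endothelial clusters. Among 8,317 genes with at least 0.1 UMIs per 10,000 over all cells, 25.8%, 8.75%, 16.6% and 18.8% were that much lower in clusters 3, 4, 5 and 6. The median log2 ratio of the 8 genes was -3.00, -3.13, -3.18 and -3.15 in these clusters, and that of all genes tested was -0.22, 0.05, -0.08 and -0.14. The cells were clustered on these very counts, and the ratios therefore describe the clusters and are no test of them. The counts stayed at 8 with clusters 0, 1 or 2 alone as the reference. Fewer endothelial cells within a cluster and less RNA in each cell both lower such a sum, and the spread over cells is given below.

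How much was kept differed between the genes. In cluster 5 Egfl7 kept 21.4% of its endothelial level (counting interval 20.98 to 21.78%), with 20.3, 27.1 and 18.6% in the 3 libraries. Pecam1 kept 16.6% (15.4, 20.4 and 15.6%). The other 6 genes kept between 7.81% (Emcn) and 11.8% (Cdh5), and Emcn (7.22, 11.4 and 6.15% by library) and Cldn5 (8.25%) stood below the remaining 4. In each library Egfl7 was the highest and Pecam1 the second. Library 2 gave the highest value of the 3 for all 8 genes in cluster 5.

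In cluster 6 the order had another top. Esam kept 34.3% (interval 32.5 to 36.2%), with 33.1, 33.6 and 36.2% by library, followed by Egfl7 with 24.1% and Pecam1 with 20.2%. Clec14a kept 5.36% (3.65, 8.03 and 4.90%), the least of the 8. Emcn, Cldn5, Cdh5 and Mcam, between 8.74 and 12.5%, did not stand apart from each other as neighbours in the order. Cluster 3 kept most of Pecam1 (29.6%; libraries 27.3, 36.6 and 22.1%) and cluster 4 most of Mcam (38.9%; libraries 35.9, 37.5 and 43.9%). In both, Emcn was the lowest, with 8.73% and 7.21%, and the 6 genes between covered 11.6 to 16.2% in cluster 3 and 9.67 to 14.0% in cluster 4.

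**Figure D2:**
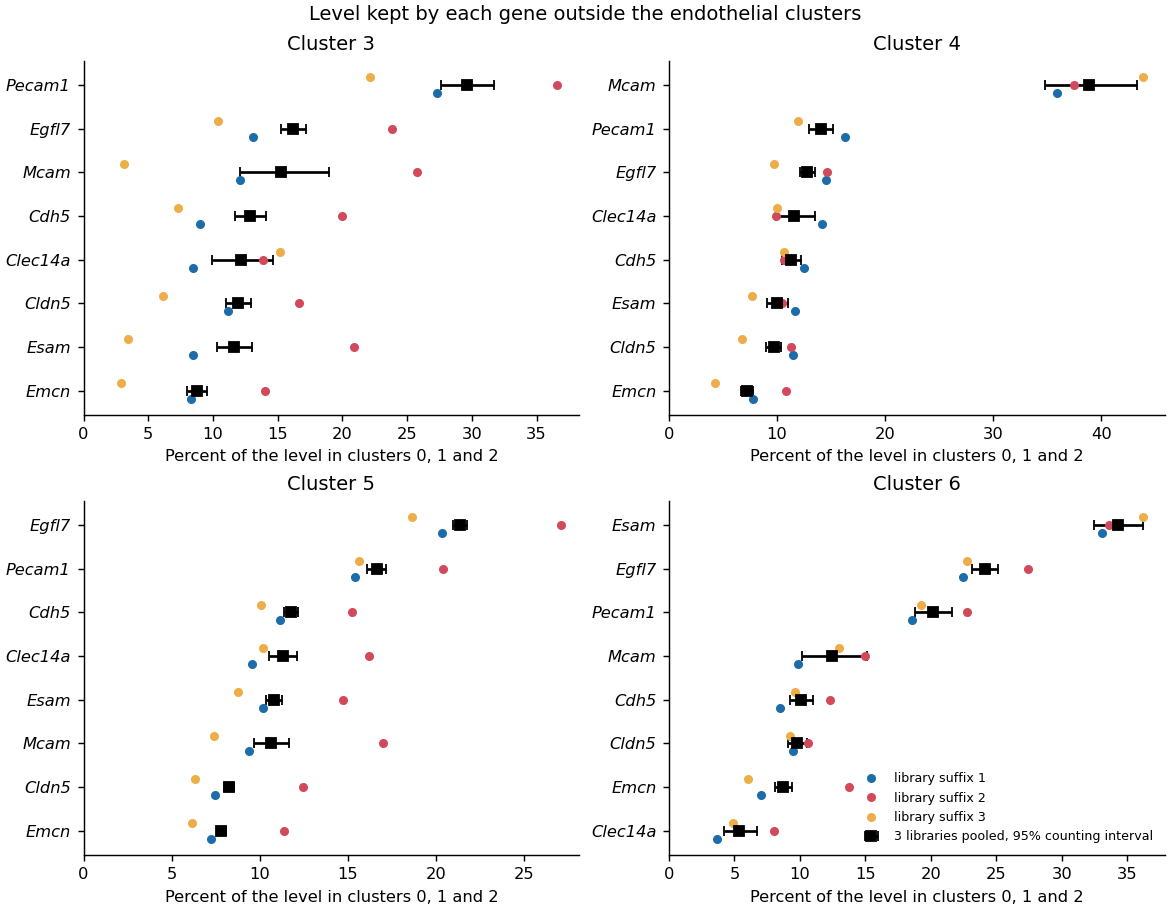
Level of each gene in clusters 3 to 6 as a percentage of its level in clusters 0, 1 and 2 (horizontal axis, percent), with genes ordered by the pooled value. Squares give the 3 libraries pooled with the 95% counting interval and points give single libraries, and the top genes of clusters 3 to 6 are Pecam1, Mcam, Egfl7 and Esam, in that order.

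Which gene was lowest depended on the endothelial cells taken as the start, since the 8 genes differed among clusters 0, 1 and 2. For cluster 5, Emcn was lowest against cluster 2 (7.64%), Clec14a against cluster 0 (3.19%) and Mcam against cluster 1 (3.27%). Egfl7 was the highest against each of them, with 20.8, 14.9 and 22.0% against clusters 0, 1 and 2, although Clec14a came to 14.9% as well against cluster 1. For cluster 6, Clec14a was lowest against cluster 0 (1.51%) and cluster 2 (6.81%) and Mcam against cluster 1 (3.83%). Esam and Egfl7 both came to 23.4% against cluster 0, and Esam was above Egfl7 against clusters 1 and 2 (18.9 against 16.8%, and 37.7 against 24.8%). Because clusters are not tied to times, none of these is known to be the start of any cell.

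The make-up of the members' RNA changed with these differences. Egfl7 gave 24.1% of the UMIs of the 8 genes in the endothelial clusters, 39.6% in cluster 5 and 35.6% in cluster 6. Esam rose from 9.38% to 19.7% in cluster 6. Emcn made up 20.0% in the endothelial clusters, 12.01% in cluster 5 and 10.7% in cluster 6. Pecam1 went from 10.1% to 20.9% in cluster 3 and Mcam from 1.95% to 6.75% in cluster 4. The ratio of Egfl7 to Emcn UMIs was 1.20 in the endothelial clusters and 2.23, 2.14, 3.29 and 3.32 in clusters 3 to 6, and the part of free RNA in these levels was not tested.

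**Figure D3:**
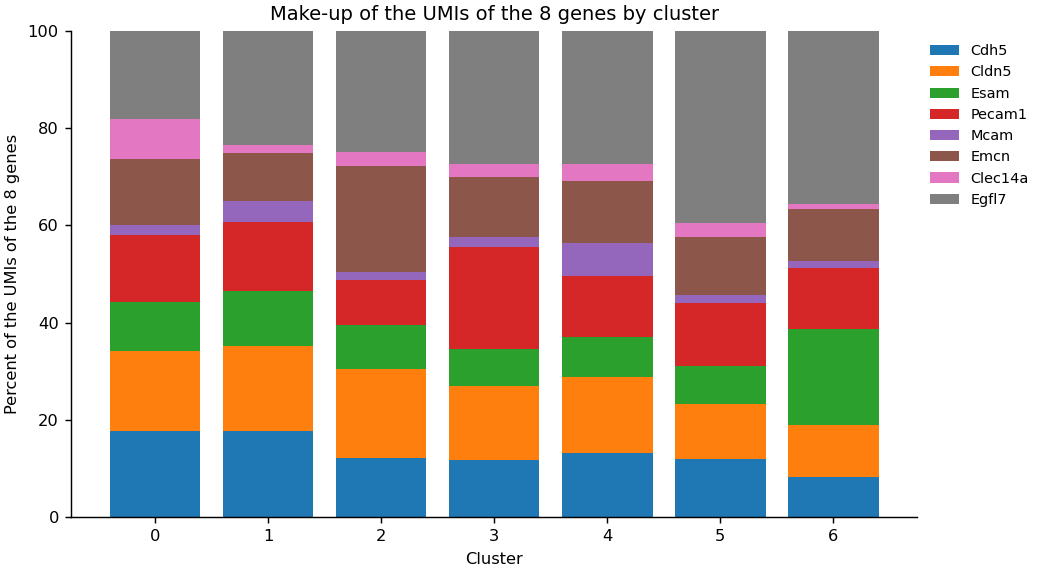
Share of each gene in the UMIs of the 8 genes (vertical axis, percent, adding to 100) in each cluster (horizontal axis). Egfl7 takes 39.6% in cluster 5 and 35.6% in cluster 6, Esam 19.7% in cluster 6, Pecam1 20.9% in cluster 3 and Mcam 6.75% in cluster 4.

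Detection in single cells was compared after 5,000 UMIs had been drawn from each cell, which left 9,472 cells. The median cell of cluster 0 held 7 of the 8 genes, those of clusters 1 and 2 held 6, those of clusters 3 and 6 held 2 and those of clusters 4 and 5 held 1. In clusters 0 and 2, 0 cells lacked all 8, and in cluster 1 there were 22 of 745. In cluster 5, 459 of 1,568 cells held none and 459 held exactly 1 of the 8. In cluster 6, 42 of 309 held none and 102 held 1. At least 6 of the 8 were found in 101 cells of cluster 5 and 22 of cluster 6.

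Among the 459 cells of cluster 5 with 1 member, that member was Egfl7 in 322 (70.2%; exact binomial interval 65.7 to 74.3%), Pecam1 in 72 and each of the other 6 in at most 22. In cluster 6 it was Egfl7 in 49 of 102 cells, Esam in 31 and Pecam1 in 14, and Cldn5, Clec14a and Mcam were the single member in 0 cells (exact binomial upper bound 3.55% each). In cluster 4, whose cells carry stromal markers, Egfl7 was the single member in 73 of 150 cells. A gene with a higher level is detected more easily, and Egfl7 had the highest level of the 8 in the endothelial clusters. With each gene reduced in expectation to the endothelial level of Mcam, the lowest, Egfl7 would be found in 10.2% of cluster 5 cells and Pecam1 in 8.25%, against 4.92 to 6.06% for the other 6. In cluster 6 the same reduction gave 16.4% for Esam, 11.2% for Egfl7, 10.4% for Pecam1 and 3.39% for Clec14a.

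Shares of cells with a UMI were taken at the same depth. Egfl7 was found in 96.5% of endothelial cells, 56.1% of cluster 5 and 62.5% of cluster 6. Emcn was found in 92.5%, 22.2% and 23.6%. For Esam the shares were 79.9%, 17.9% and 47.6%, and for Pecam1 80.8%, 29.0% and 32.7%. In cluster 4 Egfl7 was found in 34.2% of cells, Pecam1 in 16.8%, Emcn in 14.5% and Esam in 12.5%. Cluster 4, whose cells carry stromal markers (median depth 19,475.5 UMIs), is set beside the others here, but it gives no clean background, since its cells were sorted for the products of Pecam1 and Cdh5 as well and 34 of its 518 cells held 62.6% of its Cdh5 and 64.5% of its Cldn5 UMIs. Shares in clusters 5 and 6 were above those of cluster 4 in each library for Egfl7, Pecam1, Esam and Cldn5. For Cdh5, Emcn and Clec14a the libraries differed in this, and Mcam was found in more cells of cluster 4 (9.57%) than of clusters 5 (5.68%) and 6 (7.44%).

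**Figure D4:**
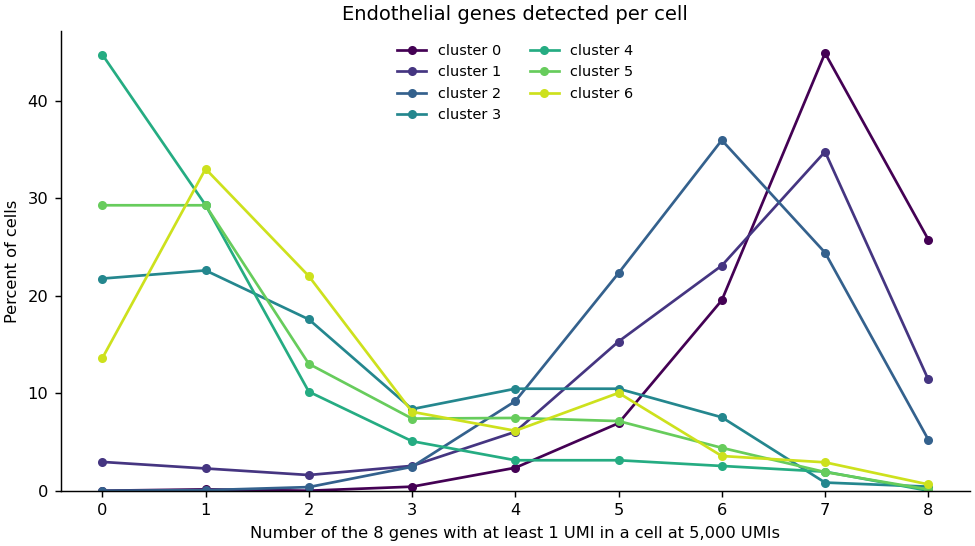
Percent of cells (vertical axis) by the number of the 8 genes with at least 1 UMI when each cell is reduced to 5,000 UMIs (horizontal axis), 1 line per cluster. Clusters 0, 1 and 2 peak at 6 or 7 genes, clusters 3 and 6 at 1 gene, cluster 4 at 0 and cluster 5 at 0 and 1.

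The UMIs of the 8 genes were spread unevenly over cells. The 10% of cells with most of them held 49.4% of these UMIs in cluster 5, 43.7% in cluster 6 and 67.1% in cluster 4, against 22.4 to 28.8% in clusters 0, 1 and 2. The summed level reached 50% of the endothelial median of 37.9 UMIs per 10,000 in 151 of 1,572 cells of cluster 5 and 43 of 310 cells of cluster 6. This limit was chosen after the values were seen, and the 2 sides of it are given as a description. Of these cells 116 of 151 and 34 of 43 were from library 2, where they made up 18.0% of cluster 5 and 22.4% of cluster 6, against 3.37 to 6.42% in libraries 1 and 3. Their median depth was 8,418 UMIs in cluster 5 and 8,783 in cluster 6, against 37,646 and 36,161 in the other cells of these clusters. They carried lineage markers all the same, with macrophage sums of 14.6 and 17.1 UMIs per 10,000 on the 2 sides in cluster 5, but granulocyte sums of 3.43 and 16.3, and megakaryocyte sums of 88.6 and 210.1 in cluster 6. Whether such cells held RNA of more than 1 cell was not tested.

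The remaining 1,421 cells of cluster 5 and 267 of cluster 6 were chosen for low sums of the same 8 genes, so that lower values are set by the choice. In them Egfl7 kept 18.9% in cluster 5 and Pecam1 13.8%, and the other 6 genes kept 5.35 (Emcn) to 8.76% (Cdh5). In cluster 6 Esam kept 30.0%, Egfl7 19.8% and Pecam1 15.7%, and the other 5 genes kept 3.23 (Clec14a) to 6.36% (Mcam). The few cells with high sums held 53.3% of the Cdh5, 59.9% of the Cldn5 and 53.8% of the Emcn UMIs of cluster 6, but 19.4% of its Esam UMIs.

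Runx1 was rare in the endothelial clusters. At 5,000 UMIs per cell it was found in 53 of 722 cells of cluster 0 (7.34%), 35 of 745 of cluster 1 (4.698%) and 64 of 5,377 of cluster 2 (1.19%), and in 28 of 512 of cluster 4 (5.47%). In clusters 5 and 6 it was found in 660 of 1,568 (42.1%) and 161 of 309 cells (52.1%). Cells with at least 1 Runx1 UMI at this depth are called Runx1-positive. Their genes were compared with the other cells of the same cluster, since pooling the clusters would repeat the differences between them. In cluster 3 there were 8 such cells, and neither cluster 3 nor cluster 4 is compared further.

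In cluster 0 all 8 genes were lower in the 53 Runx1-positive cells, with counting intervals below 0 and the same sign in every library. Their summed level was 33.2 UMIs per 10,000 against 54.4 in the 669 other cells (libraries 31.9, 30.8 and 37.2 against 55.3, 54.1 and 53.8). At least 2-fold lower were 2 of the 8, Mcam and Emcn, where 6.42% of genes tested were that much lower, and the median log2 ratio was -0.67 for the 8 genes and 0.01 for all genes. How many of all genes were lower with such intervals, or in every library, was not counted, here or for the clusters below. Mcam stood at 0.109, 0.202 and 0.512 in Runx1-positive cells of libraries 1, 2 and 3, and at 1.25, 1.17 and 1.22 in the others, without overlap. The log2 ratio of Mcam was -2.15 (interval -2.71 to -1.64), and it rests on 31 UMIs in Runx1-positive cells. Emcn stood at 2.46, 2.90 and 5.31 against 8.26, 6.83 and 7.05, also without overlap, with a log2 ratio of -1.06 (-1.21 to -0.92). The log2 ratio of Emcn was -0.77 without library 1 and -0.98 without library 2, so that the count of 2 became 1 in both cases, whereas Mcam stayed past 2-fold in each. Without library 3 the log2 ratio of Mcam was -2.95.

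Pecam1 was close to the 2-fold limit in cluster 0, at 3.09, 3.93 and 4.50 against 7.43, 7.66 and 7.73 (log2 ratio -0.98, interval -1.12 to -0.84). The junction genes Cdh5, Cldn5 and Esam kept 62.7, 65.0 and 63.1% of the level in the other cells, with log2 ratios of -0.67, -0.62 and -0.66. Clec14a kept 70.5% and Egfl7 73.4%, with counting intervals that overlapped. Egfl7 stood at 7.68, 7.03 and 6.66 against 9.89, 9.81 and 9.39. The order of the genes differed by library. Egfl7 was kept more than Clec14a in libraries 1 and 2, but in library 3 Clec14a kept 89.2%, Emcn 75.3% and Egfl7 70.9%. Without library 1 or without library 2 the pooled log2 ratio of Clec14a (-0.41 and -0.40) was above that of Egfl7 (-0.48 and -0.43). No Runx1-positive cell of cluster 0 held all 8 genes at 5,000 UMIs, against 186 of 669 other cells, and the median was 6 against 7 genes. Mcam was found in 5.66% of the Runx1-positive cells against 43.8%, and Emcn in 66.0% against 89.8%.

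The Runx1-positive cells of cluster 0 were deeper than the others (median 19,975 against 13,938 UMIs), also in each library. Macrophage markers summed to 0.0970 UMIs per 10,000 in them and 0.112 in the others, with 1 of 6 at 0 in the positive cells (the range over libraries was 0.0270 to 0.227 and 0.0407 to 0.155). The granulocyte sum was 0.0441 against 0.0700, and that of megakaryocyte markers 0.300 against 0.266, with 4 of 6 at 0 in the positive cells for each. Pan-leukocyte markers summed to 2.26 against 1.09 (library ranges 1.35 to 3.35 and 1.03 to 1.22), markers of pericytes and smooth muscle to 3.90 against 2.88 and erythroid markers to 0.247 against 0.755. Without cells holding a macrophage, granulocyte or megakaryocyte UMI, the count stayed at 2 and the log2 ratios ran from -2.14 for Mcam to -0.41 for Egfl7. The share of all genes was not counted without these cells. Graded by Runx1 in the counts as deposited, the summed level of the 8 genes in cluster 0 was 56.1 in 638 cells without Runx1, 43.5 in 34 cells with up to 1 UMI per 10,000 and 31.4 in 56 cells above it, with median depths of 13,420.5, 26,671.5 and 20,478.5 UMIs.

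In cluster 1 the 8 genes were lower in the 35 Runx1-positive cells in each library as well, and here 8 of 8 were at least 2-fold lower, where 15.8% of genes tested were. The summed level was 18.2 against 58.5 UMIs per 10,000 (libraries 18.1, 21.2 and 13.2 against 57.9, 62.0 and 56.9), without overlap. Log2 ratios ran from -2.01 for Esam and -1.91 for Cldn5 to -1.26 for Clec14a, with a median of -1.56 against -0.29 for all genes. Egfl7, at -1.83, was among the lowest, unlike in cluster 0. Libraries 1, 2 and 3 held 19, 10 and 6 of these cells, and without library 1 the log2 ratios of Mcam (-0.55) and Clec14a (-0.98) were short of 2-fold.

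Markers of several other cell types differed along with this result. In the Runx1-positive cells of cluster 1 the macrophage markers summed to 36.4 UMIs per 10,000 against 3.31, with library values from 1.03 to 55.4, and 0 of 6 were at 0. Pan-leukocyte markers summed to 36.4 against 5.42, megakaryocyte markers to 12.4 against 1.38 (4 of 6 at 0) and granulocyte markers to 3.63 against 0.499 (5 of 6 at 0). Markers of pericytes and smooth muscle summed to 5.98 against 1.56, with library values from 0.515 to 39.6 and from 0.672 to 2.70, and 0 of 6 were at 0. Erythroid markers were lower, at 0.0456 against 4.51 (5 of 6 at 0), and so were stromal markers, at 0.821 against 2.75 (2 of 6 at 0). Their part in the result was not tested. Of the 35 cells, 22 (62.9%) held a UMI of these 3 lineages at 5,000 UMIs, against 272 of 710 others (38.3%). All 9 Runx1-positive cells with none of the 8 endothelial genes were among those 22. In the 13 others the median was 5 endothelial genes, and the summed level was 34.7 against 63.8 in Runx1-negative cells without a lineage UMI. Without all cells holding such a UMI, 3 of 8 genes were at least 2-fold lower, namely Cldn5 (-1.31), Egfl7 (-1.29) and Esam (-1.11), and Cdh5 came to -0.50 and Mcam to -0.20. This compares 13 with 438 cells, and the share of all genes that much lower between them was not counted.

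In cluster 2, 0 of 8 genes were at least 2-fold lower in the 64 Runx1-positive cells, where 0.637% of genes tested were, and the summed level was 34.5 against 35.8 UMIs per 10,000. Log2 ratios ran from -0.21 (Cldn5, 5.68 against 6.59, interval -0.33 to -0.10) to 0.34 (Mcam, 0.768 against 0.609, interval 0.01 to 0.65). Cdh5, Cldn5 and Emcn were lower in each library, and none of the 8 was higher in each. The cells differed in other ways. Of the 64, 40 were from library 2, their median depth was 9,227.5 UMIs against 22,656, and stromal markers summed to 1.26 against 0.151, with none of 6 at 0 in either. A UMI of the 3 blood lineages was held by 30 of the 64 (46.9%) against 19.8% of the others. Macrophage markers summed to 0.296 against 0.0837, granulocyte markers to 0.444 against 0.0713, megakaryocyte markers to 0.842 against 0.231 and pan-leukocyte markers to 1.45 against 0.440. Markers of pericytes and smooth muscle summed to 0.861 against 0.353. Erythroid markers summed to 0.278 against 0.476. The part of these in the result was not tested. By library the summed level was 34.6, 36.5 and 29.7 in 20, 40 and 4 Runx1-positive cells against 35.5, 36.4 and 35.4 in the others, with median depths of 23,243.5, 7,056 and 42,700.5 against 24,097, 14,454.5 and 40,177.5 UMIs.

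**Figure D5:**
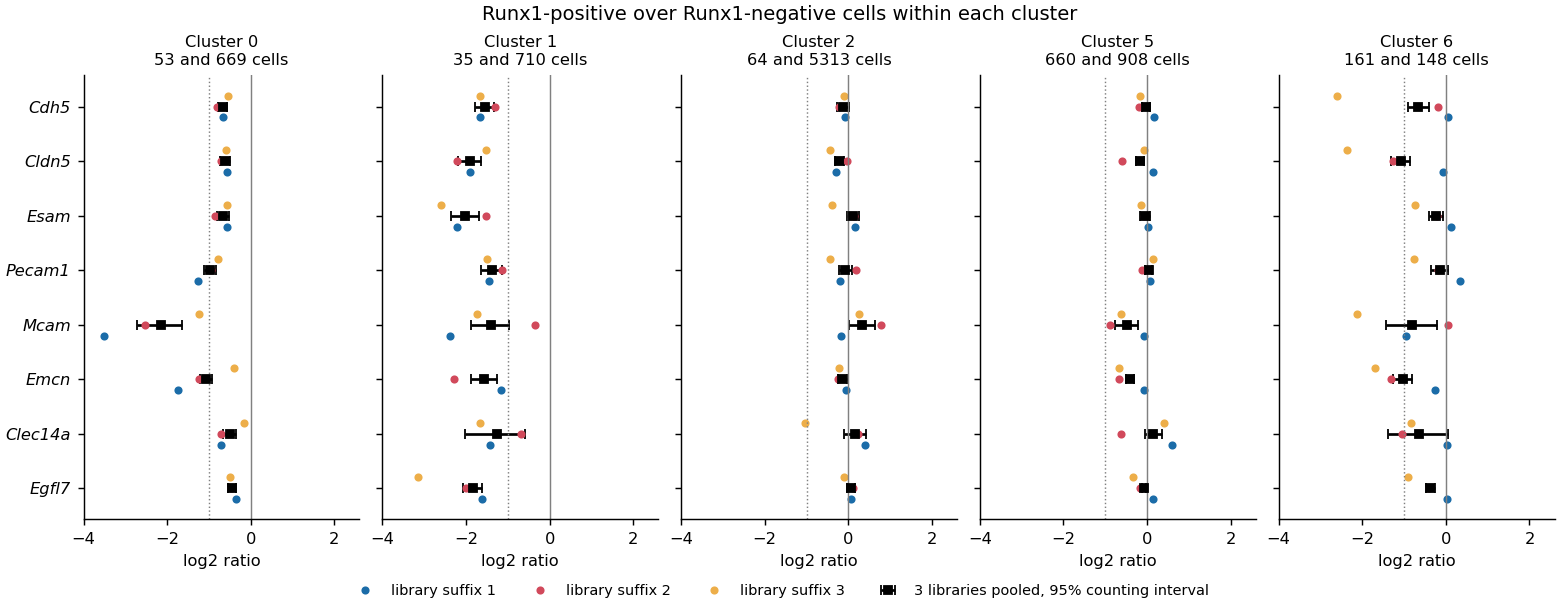
Log2 ratio of the level in Runx1-positive to that in Runx1-negative cells (horizontal axis) for the 8 genes within clusters 0, 1, 2, 5 and 6, with the 2 cell numbers above each panel. Squares give the 3 libraries pooled with the 95% counting interval, points give single libraries, the dotted line is 2-fold lower, and 1 point at -5.06 (Emcn, cluster 1, library 3) lies off the axis.

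In clusters 5 and 6 the 8 genes were low on both sides of the Runx1 split. In cluster 5, 0 of 8 were at least 2-fold lower in the 660 Runx1-positive cells, where 0.457% of genes tested were, with summed levels of 4.76 against 5.11 UMIs per 10,000. Mcam (0.0642 against 0.0904, log2 ratio -0.49, interval -0.77 to -0.22) and Emcn (0.5005 against 0.667, -0.41, -0.51 to -0.32) were the lowest and were lower in each library. For Emcn the libraries gave 0.552, 0.618 and 0.358 against 0.578, 0.979 and 0.568. Median depths in libraries 1, 2 and 3 were 39,858, 19,376 and 63,922 against 41,217, 12,363.5 and 65,391 UMIs. Over the cluster, erythroid markers summed to 0.968 against 4.91 and those of pericytes and smooth muscle to 0.320 against 0.160. Both were without overlap between libraries. Markers of germ and pluripotent cells summed to 0.0335 against 0.222. Of the cells with high sums of the 8 genes, 32% were Runx1-positive, against 43.2% of the other cells. Those with high sums held 34.8% of the Emcn and 37.6% of the Mcam UMIs of the cluster. The part of depth, of the cells with high sums and of these markers was not tested. Cdh5, Pecam1, Esam and Clec14a had intervals that included 0.

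In cluster 6, 2 of 8 were at least 2-fold lower in the 161 Runx1-positive cells, where 3.73% of genes tested were. The median log2 ratio of the 8 was -0.66, against -0.06 in cluster 5. The 2 were Cldn5 (0.444 against 0.941 UMIs per 10,000, log2 ratio -1.08, interval -1.31 to -0.86) and Emcn (0.448 against 0.915, -1.03, -1.26 to -0.81). By library, Cldn5 read 0.617, 0.469 and 0.236 against 0.650, 1.13 and 1.22, and Emcn 0.502, 0.594 and 0.246 against 0.601, 1.47 and 0.799. Library 1 thus showed little of the difference, and without library 3 the count was 0. Without library 2 it was 2 again, but for Cdh5 (-1.03) and Mcam (-1.47), with Cldn5 at -0.99 and Emcn at -0.83. Esam (-0.24) and Pecam1 (-0.15) differed least. The Runx1-positive cells were deeper in library 2 (median 17,891 against 14,032 UMIs). They were close to the others in library 1 (39,238 against 39,077) and library 3 (61,172 against 59,985). Of the cells with high sums of the 8 genes described above, 39.5% were Runx1-positive, against 54.1% of the other cells of the cluster. Markers of germ and pluripotent cells summed to 0.121 against 1.08 UMIs per 10,000, macrophage markers to 0.133 against 0.455 and megakaryocyte markers to 212.8 against 186.5. Granulocyte markers summed to 0.488 against 0.256 and those of pericytes and smooth muscle to 0.300 against 0.101. The part of depth, of the cells with high sums and of these markers in the result was not tested. Emcn was lower in Runx1-positive cells of each library in clusters 0, 1, 2, 5 and 6, whereas each of the other 7 genes had a library with a log2 ratio above 0 in at least 1 of these clusters. In library 3 this rests on 6 Runx1-positive cells in cluster 1 and 4 in cluster 2. The pooled log2 ratio of Emcn in cluster 2 (-0.14) changed sign under 1 of 11 alternatives, with a highest value of 0.07. How many of all genes were lower throughout was not counted.

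Other genes of the junction followed in part. Of 20 junction partners, 19 passed the minimum level (all but Ocln), and 13, 7, 17 and 14 were at least 2-fold lower in clusters 3, 4, 5 and 6, with medians of -1.44, -0.75, -2.45 and -1.78 on the log2 scale, beside 25.8%, 8.75%, 16.6% and 18.8% of all genes tested. In cluster 5 the lowest was Gja5 (-3.26), a connexin of arterial gap junctions, and the highest Cd99l2 (-0.68). The catenins that tie VE-cadherin to actin were also lower there, Ctnnb1 at 1.79 against 5.76 UMIs per 10,000 and Ctnna1 at 0.571 against 2.56. In cluster 6 Vcl, which links adhesion sites to actin, was higher at 2.62 against 0.637 (log2 ratio 2.04). F11r, a junctional adhesion molecule also found on platelets, was at 1.04 against 1.37 there. In cluster 4 Jam3, another junctional adhesion molecule, was the highest (log2 ratio 1.08).

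Of 20 other genes of the endothelial surface, 20, 19, 20 and 19 were at least 2-fold lower in clusters 3, 4, 5 and 6, with medians of -2.99, -2.98, -2.69 and -2.99, close to those of the 8 genes. Plvap, which forms the diaphragms of fenestrae and caveolae, was the lowest in cluster 5 (-3.48). Vwf, which platelets and megakaryocytes also store, was the exception in cluster 6, with 1.23 against 0.637 UMIs per 10,000. In Runx1-positive cells of cluster 0, 9 of these 20 and 2 of the 19 junction partners were at least 2-fold lower, with medians of -0.98 and -0.61, beside 6.42% of all genes tested. The partners included Ctnnb1 at 7.20 against 8.04 and Tjp1, which encodes the scaffold ZO-1, at 2.79 against 3.17, while Gja5 was at 2.15 against 5.37 and Jup, which encodes plakoglobin, at 0.362 against 0.897. Procr, the endothelial protein C receptor, was the highest of the surface list there, at 2.08 against 1.07, and also in clusters 1 (4.403 against 2.140) and 2 (0.555 against 0.185). In cluster 1, 8 of 19 partners and 14 of 20 surface genes were at least 2-fold lower (15.8% of all genes). In clusters 2 and 5 none of either list was at least 2-fold lower (0.637% and 0.457% of all genes). In cluster 6, 3 of each were (3.73% of all genes). At least 2-fold higher were 2 partners in cluster 2, with Jam2 the highest (log2 ratio 1.37). Procr was the 1 surface gene that much higher in clusters 1 and 2.

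Over the 21 combinations of cluster and library, the genes whose levels were most like the mean of the 8 were Ecscr (Pearson r of log2 levels 0.996), Mmrn2 (0.994), Sox18 (0.991), Flt1 (0.987) and Sox7 (0.987), among 8,309 genes. These points share libraries and depth, and the values are a description. Nearest to the single genes were Mmrn2 for Cdh5 (0.997), Eng for Pecam1 (0.975), Sox18 for Cldn5 (0.990), Exoc3l4 for Esam (0.984), Cd38 for Egfl7 (0.982), Efna1 for Clec14a (0.962), Arhgef15 for Emcn (0.988) and Plekhg1 for Mcam (0.980). Of these 8 nearest genes, 6 remained with a pseudocount of 0.1 and 2 with a minimum level of 1. Among the 8 genes themselves r ran from 0.779 (Esam and Clec14a) to 0.987 (Cdh5 and Cldn5).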

How the data were processed

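RNA was measured in single cells with 10x Genomics 3′ v3 chemistry in 3 pools of sorted cardiac endothelial cells. Per the submitters' notes, Cell Ranger 3.1.0 was used for alignment to mm10 (GRCm38) and for counting, with removal of batch effects when libraries were joined, and singlets were kept. Seurat 3.1.5 is also among the tools in the submitters' processing notes. The deposited main table holds raw counts of UMIs, by Ensembl gene and by cell, and another gives each cell's Leiden cluster. In a further deposited table they gave the natural log of counts per 10,000, which was not used. The methods state a minimum of 5,000 UMIs per cell, and 90 of 9,562 cells held fewer.

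Of 27,998 genes, 27,645 took a name from GENCODE M21, and 4 names were summed. A level is the sum of a gene's UMIs per 10,000 UMIs of a group of cells, with an exact Poisson interval. Ratios have exact conditional binomial intervals and shares Clopper-Pearson intervals, all at 95%, which cover counting error only. For detection and the Runx1 split, 5,000 UMIs were drawn without replacement from each cell (seed 1). Neighbours were called apart where intervals did not overlap and all 3 libraries gave the same order. Genes named beside the 8 were the extremes of each list, some of its catenins and scaffolds, and those most like the 8 in log2(level + 0.01). F11r was named from its list outside this rule. No doublet caller was run. The members and lists were chosen with earlier results of these data known. The analysis used Python 3.11.15, numpy 2.4.6, pandas 2.3.3 and scipy 1.17.1, and the ratios were tested on simulated data. Alternatives were other references, fold limits, Runx1 limits, draws and weights of cells, each library left out, and cells of high depth or with lineage markers left out.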

Additional observations from a re-analysis of the deposited data

How the results depend on the processing

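The counts of 8 genes at least 2-fold lower in clusters 3, 4, 5 and 6 stayed at 8 or within 1.5 times of it under every alternative run, including a 4-fold limit, each library left out, the mean over cells, cells at 5,000 UMIs and each endothelial cluster as the reference. The counts by Runx1 moved more. For these alternatives the share of all genes past the limit was not counted, so that the moved counts have no such share beside them. In cluster 0 the count of 2 became 6 at a 1.5-fold limit, 1 at a 4-fold limit and 4 with at least 2 Runx1 UMIs, and ran from 1 to 3 with 1 library left out, where Emcn was lost without library 1 or 2 and Mcam remained. In cluster 1 the count of 8 ran from 6 to 8 with 1 library left out and became 5 at 5,000 UMIs per cell, 1 at a 4-fold limit and 3 without cells holding a blood lineage UMI. The count of 0 in cluster 2 became 1 with at least 2 Runx1 UMIs, and that of 0 in cluster 5 became 3 with Runx1 above 0.5 UMIs per 10,000 as deposited. In cluster 6 the count of 2 became 5 at a 1.5-fold limit, 0 at a 4-fold limit, 7 with the limit of 0.5 as deposited and 1 with the draw of seed 3, and ran from 0 to 3 with 1 library left out. The limit of 0.5 as deposited does not equalise depth, and cells without a Runx1 UMI then had a median of 8,547 UMIs in cluster 5 and 8,624 in cluster 6. No log2 ratio of a gene past 2-fold changed sign. Of the 5 genes most like the 8, 4 remained with a pseudocount of 0.1 and 3 with a minimum level of 1, and of the 8 nearest to single genes 6 and 2 remained. No paired test was made, because the libraries are not tied to the labelled pools and the cells were treated as 1 sample. The ratios within each library are given instead. The values by library show the spread between libraries, and no test over them was made. Depth limits Mcam and Clec14a most, which rest on 31 and 362 UMIs in Runx1-positive cells of cluster 0 and on 100 and 72 in cluster 6.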
